A study of Homo sapiens with 8 samples.

Results

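DLD1 and HCT8, 2 colorectal cancer (CRC) cell lines, were compared as lines: each was sequenced once untreated and once under hypoxia, and the difference DLD1 minus HCT8 was taken across both treatments. The comparison uses 4 of the 8 libraries of the series and 18144 of the 54261 genes in its count table, namely those placed on chromosomes 1 to 22 that reached 10 counts in 2 or more of the 4. FAP, with 10 and 13 counts in DLD1 and 0 in HCT8, lay just inside this limit, and ANPEP, with 73 counts in DLD1 under hypoxia and at most 6 in the others, lay just outside. The study describes both lines as mutated in APC, which was not read from the files. Both lines came from a commercial cell bank, are labelled as passage P5 and were grown in DMEM with fetal bovine serum. The oxygen level and the length of the hypoxia treatment are not given in the sources used here. Each cell of line and treatment holds 1 library, and nothing says that the libraries of a line came from separate cultures, so the p-values measure only the spread between these libraries, which may be technical.

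Cell lines of colorectal origin keep parts of the program of the intestinal epithelium to different degrees. In the gut, CDX1, CDX2 and HNF4A switch on the genes of absorptive enterocytes, whose brush border is built from actin bundlers such as villin, while HOX genes record the position of a cell along the body axis and are read from clusters of neighbouring genes. Tumour lines also differ in growth factor signalling, in chromosome content and in genes that one line reads and another keeps silent.

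Total counts lay between 45519306 in HCT8 under hypoxia and 57374239 in DLD1 under hypoxia, so that 1 count stood for 0.0174 to 0.022 CPM, the unit in which counts are scaled to a common library total. The epithelial markers EPCAM, CDH1, KRT8, KRT18 and KRT19 had at least 15086 counts in every library of both lines. VIL1 and CDX2, chosen as epithelial markers with them, were read in both lines but fell under this level in DLD1. Both were lower in DLD1 than in HCT8, with counts given below. Markers of other cell types were low. The 8 fibroblast markers summed to 0.605 to 3.63 CPM in DLD1 and 3.89 to 8.9 CPM in HCT8, the 8 endothelial markers to 7.95 to 16.4 and 5.62 to 6.15 CPM, and the 12 leukocyte markers, 1 of them at 0 throughout, to 3.4 to 3.47 and 4.35 to 6 CPM. The 11 neural markers, 3 of them at 0, summed to 71 to 80 CPM in DLD1 and 38.2 to 48.9 CPM in HCT8, carried by TUBB3 in DLD1 and NES in HCT8, which epithelial tumour lines also read. Both untreated libraries carry 1 run label. The DLD1 hypoxia library carries 2 run labels, of which the HCT8 hypoxia library has only 1.

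The regions before the start of 4 genes that came to stand for the comparison are printed first, because each gene was read at high level in one line and close to 0 in the other, or marks the enterocyte program. Each run gives the 250 bases before the RefSeq start of the gene on its own strand, 5′ to 3′, on GRCh38.p14, with every CG pair in capitals. HOXA13 (chr7:27200092-27200341, minus strand) and TMEM200A (chr6:130365767-130366016, plus strand) were read in DLD1, and ZNF512 (chr2:27582792-27583041, plus strand) and ALPI (chr2:232455903-232456152, plus strand) in HCT8.
HOXA13: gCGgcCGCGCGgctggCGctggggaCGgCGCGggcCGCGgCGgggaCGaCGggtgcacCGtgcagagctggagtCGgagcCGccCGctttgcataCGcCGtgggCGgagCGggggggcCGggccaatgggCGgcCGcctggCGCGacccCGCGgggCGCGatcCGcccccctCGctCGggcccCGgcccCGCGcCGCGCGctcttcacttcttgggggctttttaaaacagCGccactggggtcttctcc
TMEM200A: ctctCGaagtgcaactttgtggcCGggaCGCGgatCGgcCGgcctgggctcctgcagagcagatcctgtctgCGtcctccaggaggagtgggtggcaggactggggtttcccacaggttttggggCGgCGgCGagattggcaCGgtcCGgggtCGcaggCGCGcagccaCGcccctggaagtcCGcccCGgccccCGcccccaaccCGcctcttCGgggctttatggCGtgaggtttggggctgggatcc
ZNF512: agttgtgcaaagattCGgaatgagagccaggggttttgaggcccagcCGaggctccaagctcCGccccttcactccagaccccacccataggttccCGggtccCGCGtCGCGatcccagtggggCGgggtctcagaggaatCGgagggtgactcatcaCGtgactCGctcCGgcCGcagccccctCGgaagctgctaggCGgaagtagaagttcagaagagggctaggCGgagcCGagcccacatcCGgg
ALPI: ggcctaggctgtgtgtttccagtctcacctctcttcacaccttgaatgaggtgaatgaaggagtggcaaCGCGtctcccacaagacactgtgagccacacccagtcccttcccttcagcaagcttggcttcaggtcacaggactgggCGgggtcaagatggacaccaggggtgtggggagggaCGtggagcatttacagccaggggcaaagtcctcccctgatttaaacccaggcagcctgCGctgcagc
Over the 300-base window that RefSeq supplies (250 bases before the start and 50 after), the HOXA13 promoter held 44 CG pairs at 76.3% G+C, TMEM200A held 25 and ZNF512 held 22. ALPI held 7, with an observed CpG content of 0.263 times the expected, against 1.01 for HOXA13. The HOXA13 window shares 171 bases with that of HOTTIP, a non-coding RNA that starts 330 bases away on the opposite strand. DNA methylation was not measured in this series.

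The lines differed in 6331 genes, 34.9% of those tested (edgeR quasi-likelihood test with treatment as covariate, Benjamini-Hochberg adjusted p under 0.05). In DLD1, 3029 genes (16.7%) were higher and 3302 (18.2%) were lower, and the median log2 fold change over all tested genes was -0.01. In such bulk RNA, fewer cells that read a gene and less RNA per cell cannot be told apart. Of all tested genes 14312 (78.9%) had the same sign in the untreated and the hypoxia pair. Of those that passed 6330 did, which follows in part from the test, since it favours genes whose pairs agree, and 3184 differed by at least 1 on the log2 scale in each pair, 1183 of them higher and 2001 lower in DLD1. Of the 2031 genes at 1 or more in the untreated pair, 1810 (89.1%) were above 0 in the hypoxia pair, and of the 3102 at -1 or less, 2889 (93.1%) were below 0. Over all tested genes the log2 differences of the pairs correlated at r = 0.841, a value across genes, which are not independent replicates, from libraries that share a line. The number of calls rested on the few libraries: without the treatment term it was 2129, and with the library of DLD1 untreated, DLD1 hypoxia or HCT8 hypoxia left out it was 691, 783 or 2247.

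**Figure D1:**
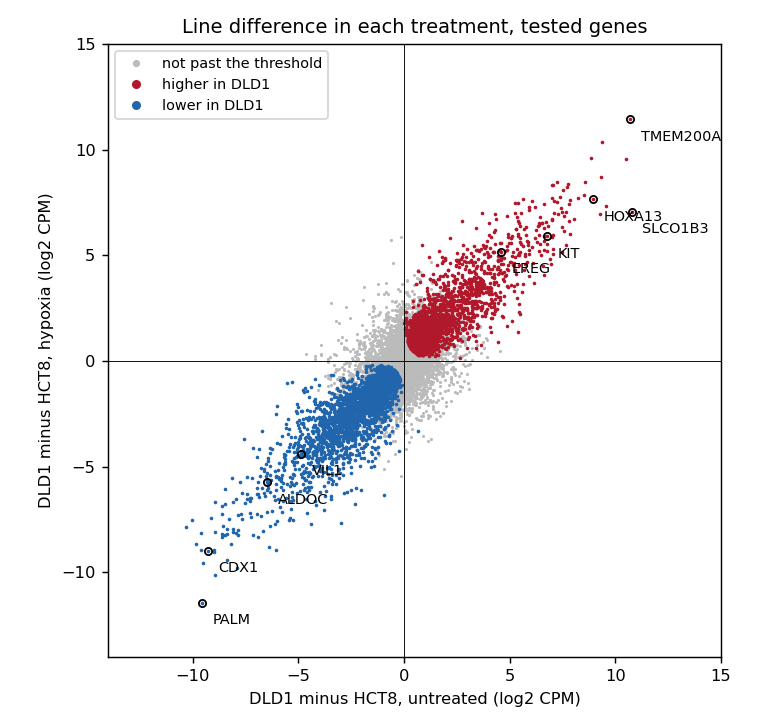
Each point is 1 of 18144 tested genes, with the DLD1 minus HCT8 difference in log2 CPM in the untreated pair on the x axis and in the hypoxia pair on the y axis. Red and blue points passed the adjusted p threshold (3029 higher and 3302 lower in DLD1), they lie along the diagonal, and circles mark 9 genes named in the text.

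The HOXA cluster on chromosome 7, whose genes specify position along the body axis, was higher in DLD1 from end to end. All 11 HOXA genes were tested and all 11 passed the threshold in that direction, with log2 fold changes from 2.13 to 10.1 and a median of 6.17. HOXA13, the gene of the hindmost position, had 6983 and 8773 counts in DLD1 untreated and under hypoxia, and 14 and 36 counts in HCT8. HOXA11 had 2074 and 2560 counts in DLD1 against 3 and 1 in HCT8. HOXA10 had 5053 and 4932 counts against 135 and 22. In each of these, both DLD1 libraries lay far above both HCT8 libraries, and the order did not depend on the treatment. The log2 fold changes were 8.30 ± 0.32 (SE, adjusted p = 4.44e-09) for HOXA13, 10.07 ± 0.38 (adjusted p = 3.84e-09) for HOXA11 and 6.25 ± 0.40 (adjusted p = 2.13e-07) for HOXA10. The anterior genes HOXA2 to HOXA4 were read in both lines. HOXA3 had 2212 and 2657 counts in DLD1 and 233 and 197 in HCT8, a log2 difference of 3.49 ± 0.22 (adjusted p = 1.59e-07). HOXA4 had the smallest difference, with 231 and 259 counts against 49 and 62. With either DLD1 library left out, 9 of the 11 genes remained past the threshold.

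**Figure D2:**
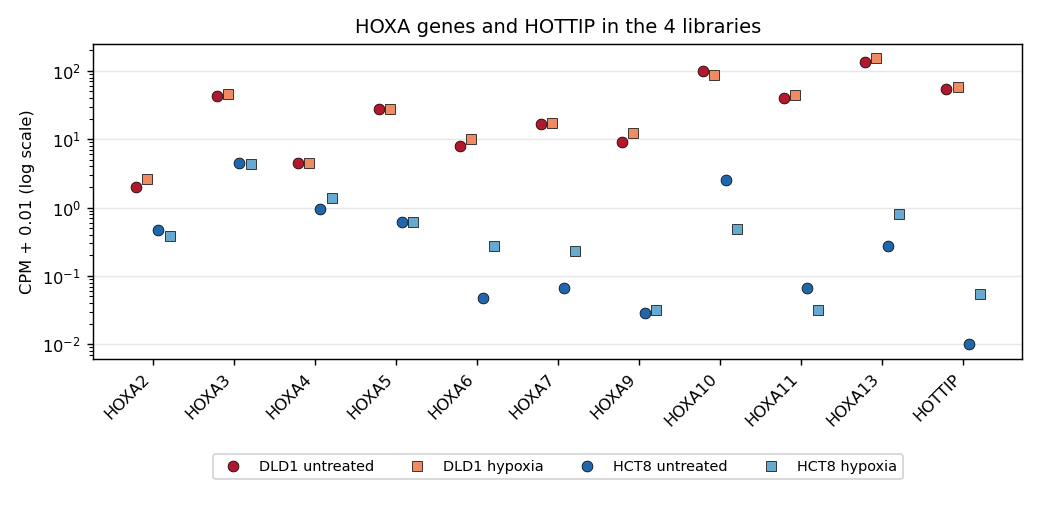
CPM + 0.01 on a log axis for 10 of the HOXA genes and HOTTIP, with 1 point for each of the 4 libraries (red and orange for DLD1, dark and light blue for HCT8, circles untreated and squares hypoxia). For every gene drawn both DLD1 points lie above both HCT8 points, with the narrowest gap at HOXA4 and wide gaps at HOXA11, HOXA13 and HOTTIP.

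The non-coding RNAs of the cluster, named after their values were seen, lay on the same side. HOTTIP, which is transcribed from the HOXA13 end of the cluster, had 2740 and 3317 counts in DLD1 and 0 and 2 in HCT8, a ratio of 2740 with a 95% counting interval of 758 to 22600. HOXA11-AS had 491 and 651 counts against 11 and 7, and HOXA10-AS had 277 and 511 against 5 and 3. The sources used here do not say whether reads were counted by strand, so reads of an antisense RNA and of the gene it overlaps cannot be told apart. HOXA4 to HOXA13 with the non-coding RNAs between them and HOTTIP formed the longest stretch of neighbouring tested genes that were all higher in DLD1 by more than 1 on the log2 scale, 12 genes with a median of 6.38.

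The HOXB and HOXC clusters did not share this direction, and the HOXD cluster shared it in part. Past the threshold were 22.2% of the tested HOXB, 14.3% of the HOXC and 71.4% of the HOXD genes, against 34.9% of all tested genes. The HOXB and HOXC shares were thus under that of all genes. In the HOXB cluster 9 of 10 genes were tested, none was higher in DLD1 and 2 were lower, against 16.7% higher and 18.2% lower over all tested genes. HOXB6 had 4300 and 5886 counts in DLD1 and 12677 and 13909 in HCT8, a log2 difference of -1.41 ± 0.17 (adjusted p = 4.24e-05), while HOXB5 was lower by -2.23. HOXB3 and HOXB9 were read at closely similar counts in both lines, with log2 differences of 0.13 ± 0.17 and -0.14 ± 0.19 that did not pass. Of the 7 tested HOXC genes, HOXC11 was lower in DLD1 and the other 6 did not pass. In the HOXD cluster 4 of 7 tested genes were higher, HOXD9, HOXD10, HOXD11 and HOXD13, which are neighbours, and HOXD4 was lower. HOXD11 had 73 and 121 counts in DLD1 against 6 and 6 in HCT8, a log2 difference of 3.93 ± 0.65 (adjusted p = 0.000562). HOXD4 had 7 and 12 against 145 and 49. With a library left out, between 0 and 2 HOXD genes were higher in DLD1.

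The largest differences in the direction of DLD1 were in genes with little or no reading in HCT8. TMEM200A, a membrane protein gene on chromosome 6, had 10434 and 12230 counts in DLD1 and 5 and 2 in HCT8, and its log2 fold change of 11.60 ± 0.32 (adjusted p = 1.29e-09) was the largest among called genes with a mean log2 CPM above 1. SLCO1B3, which encodes a hepatic uptake carrier for organic anions, had 4857 and 4702 counts against 1 and 29. IRS1, the adaptor that couples the insulin and IGF1 receptors to PI3 kinase, had 8207 and 10327 counts against 58 and 24. In each gene both DLD1 libraries lay far above both HCT8 libraries, which follows in part from the choice of large differences with the same sign in both pairs. KIT, the receptor of stem cell factor, had 6247 and 7292 counts in DLD1 and 63 and 104 in HCT8, a log2 difference of 6.34 ± 0.26 (adjusted p = 6.71e-09). FUT3, the fucosyltransferase of Lewis blood group antigens, had 1587 and 1796 counts against 16 and 29. OLR1, the receptor of oxidized LDL, and its chromosome 12 neighbour TMEM52B were higher by 7.60 ± 0.32 and 7.13 ± 0.24. QPRT, an enzyme of NAD synthesis, had 1192 counts in DLD1 untreated and 5413 under hypoxia, against 20 and 28 in HCT8. The remaining members of the 15 largest were CCDC3, ADGRV1, HOXA13, HOXA10, FOXD1, LRRN1 and the ferritin pseudogene FTH1P20, with log2 fold changes between 6.12 and 8.30. Reads of FTH1P20 may come from its parent gene.

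The largest differences towards HCT8 were mostly in genes read at few counts in DLD1. PALM, a lipid-anchored membrane protein, had 3 and 0 counts in DLD1 and 4135 and 5114 in HCT8, a ratio of 3410 with a counting interval of 1170 to 16500. SYT13, a synaptotagmin, had 13 and 14 counts against 8408 and 6931, a log2 difference of -9.14 ± 0.26 (adjusted p = 1.29e-09). AOC1, the diamine oxidase that degrades histamine in the gut, had 1 and 20 counts against 4164 and 4524. In all 3 the DLD1 libraries lay near the floor in both treatments. CTSE, the aspartic protease cathepsin E, had 5 and 10 counts against 3845 and 2912, a log2 difference of -8.80 ± 0.32. CRIP1, the cysteine-rich intestinal protein, had 3 and 4 against 1851 and 3640. COL6A1, a chain of type VI collagen, had 25 and 256 counts in DLD1 and 10818 and 14935 in HCT8. The hypoxia library of DLD1 was the higher of the DLD1 libraries in COL6A1, as it was in USH1C (7 and 44 counts), SEMA4G (6 and 60) and ALPPL2 (4 and 45), and it remained well below both HCT8 libraries in each. ADIRF, FLNC, KRT4, RASL10B, AKR1B10 and P3H3 completed the 15, with log2 fold changes between -9.41 and -7.07.

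In 101 genes the reading was close to all or nothing, with at most 3 counts in both libraries of a line and at least 100 in both of the other: 48 were read in DLD1 and 53 in HCT8. In 19 of each the silent line had 0 counts in both libraries. Most were protein coding, 40 and 48. Among the 10 with most counts in DLD1, which also favours long genes, CRTAM, a receptor of T and NK cells, had 1241 and 2731 counts against 0 and 0 and was at least 599-fold higher against a floor of 3 counts per library. PARP8 had 1414 and 1556 counts against 2 and 2. ERVMER34-1, the envelope gene of an endogenous retrovirus, had 1208 and 876 against 0 and 0, at least 314-fold. GNAI1, an inhibitory G protein subunit, had 547 and 590 counts against 2 and 1. MCOLN3, SAMD3, C6orf15, HOXA9, HOXA11 and HOTTIP were the others.

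The 10 genes with most counts among those read in HCT8 only included CDX1, PYCARD and 3 zinc finger genes. ZNF512 had 2 and 1 counts in DLD1 and 2190 and 3004 in HCT8, a ratio of 1920 with a counting interval of 655 to 9290. ZNF483 had 0 and 0 against 1550 and 1393, at least 543-fold lower in DLD1, and ZNF22 had 0 and 3 against 1646 and 1258. PYCARD, the adaptor protein ASC of the inflammasome, had 0 and 2 counts against 834 and 1169. That no DLD1 library exceeded 3 counts in these genes follows from how they were chosen. F10, the gene of coagulation factor X, had 0 and 2 counts against 716 and 1032. NSUN7 had 0 and 0 against 1085 and 955, at least 376-fold lower. DNAJA4, a co-chaperone of HSP70, and LAMC3, a laminin chain, had at most 2 counts in a DLD1 library and at least 1471 in an HCT8 library. With 0 counts asked of one line and 50 of the other the number of genes was 58, and with at most 10 against at least 100 it was 183.

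**Figure D3:**
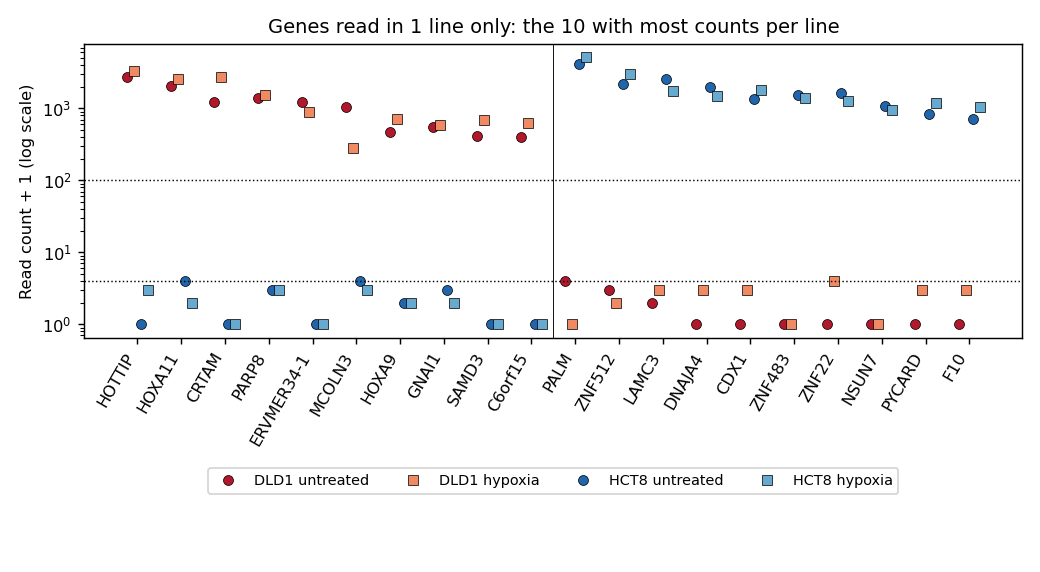
Read count + 1 on a log axis in each of the 4 libraries for the 10 genes with most counts among those read in DLD1 only (left of the line) and in HCT8 only (right), with the limits of 3 and 100 counts as dotted lines. By the choice of genes, all points of the silent line lie at or under the lower dotted line and all points of the other line above the upper one.

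HCT116, the third CRC line of the series, read some of these genes and not others. It had at least 100 counts in both of its libraries for 16 of the 48 genes read in DLD1 and for 25 of the 53 read in HCT8, and at most 3 counts in both for 12 and 22. The same shares over all tested genes were not counted, so these numbers are a description only. CDX1 and NSUN7 had 0 counts in both HCT116 libraries, whereas ZNF483 had 1238 and 625.

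Among the genes of the enterocyte and its brush border more were lower in DLD1 than higher. Of 33 genes in the list, 20 were tested, 8 were lower, 3 were higher and 9 did not pass, against 18.2% lower and 16.7% higher over all tested genes, and the median log2 fold change was -0.81 against -0.01 over all genes. The 13 others had too few counts in these lines, 5 of them 0 in all 8 libraries. VIL1, the actin-bundling villin of the microvillus core, had 411 and 1055 counts in DLD1 and 13632 and 19353 in HCT8, a log2 difference of -4.63 ± 0.21 (adjusted p = 1.23e-08). ESPN, another actin bundler, had 93 and 197 counts against 1540 and 3420. USH1C, the harmonin scaffold that holds the links between microvillus tips, was lower by -7.56 ± 0.36, with 3891 and 4673 counts in HCT8. The HCT8 libraries were the higher ones in each of the 3, untreated and under hypoxia. The link cadherin gene CDHR5 had 8 and 5 counts against 79 and 176, and MYO7B, the myosin of the tip links, 1 and 0 against 140 and 334. ALPI, the intestinal alkaline phosphatase whose promoter is printed above, had 4 and 0 counts in DLD1 and 439 and 921 in HCT8, and LGALS4, galectin-4, had 2 and 0 against 91 and 391. TSPAN8, a tetraspanin, went the other way with 6750 and 7704 counts against 3668 and 2705, as did EPS8, an actin-capping protein, by 0.75 ± 0.17. KRT20, a keratin of mature gut epithelium, had the largest difference of the 3 higher genes, with 39 and 56 counts against 10 and 0, a log2 difference of 3.52 ± 1.06 (adjusted p = 0.0217). EZR, which links the membrane to actin, and DPP4, a brush border peptidase, did not pass, at log2 differences of 0.45 ± 0.17 and -0.68 ± 0.26. With a library left out, between 5 and 9 genes of the list were lower and between 0 and 2 higher. Where a gene needed at least 10 counts in all libraries to be tested, 2 were lower and 2 higher.

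The transcription factors of the intestine were split. Of 24 tested, 8 were higher and 9 lower in DLD1, with a median of -0.11. This put 70.8% of them past the threshold, against 34.9% of all tested genes. CDX1 had 0 and 2 counts in DLD1 and 1335 and 1806 in HCT8, while its relative CDX2 was read in both, at 8345 and 13572 counts against 15531 and 18275 and a log2 difference of -0.68 ± 0.16 (adjusted p = 0.00709). ISX, a homeobox factor of the small intestine, had 243 and 475 counts against 2255 and 2191. Each of the 3 genes was lower in DLD1 in the untreated and in the hypoxia pair. HNF4A was lower by the smaller amount of -0.56 ± 0.17. Among the factors higher in DLD1, ASCL2, a factor of intestinal stem cells, had 8050 and 11256 counts against 4729 and 3764, a log2 difference of 1.16 ± 0.18 (adjusted p = 0.000377). SOX9 was higher by 0.70 ± 0.17. EHF, an epithelial ETS factor, had 7355 and 25409 counts against 3075 and 3313. With DLD1 untreated or DLD1 hypoxia left out, 4 of 24 were past the threshold in either case.

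Mucins and secretory genes showed no common direction: 4 of 17 tested were higher and 6 lower, with a median of 0.02. Past the threshold were 58.8% of these, 40.6% of the junction genes below and 31.2% of the keratins, against 34.9% of all tested genes. MUC5B, a gel-forming mucin, had 2 and 59 counts in DLD1 and 542 and 1227 in HCT8, and MUC4, a membrane mucin, 4 and 0 against 253 and 343. MUC5AC, the gastric gel mucin, had 316 and 258 counts in DLD1 and 41 and 15 in HCT8, a log2 difference of 3.47 ± 0.43 (adjusted p = 6.08e-05). TFF3, the trefoil factor of goblet cells, had 507 and 1048 against 71 and 215. MUC2, the main goblet cell mucin, had between 2 and 10 counts and was not tested. Of 32 tested junction genes 5 were higher and 8 lower (median -0.01), and CDH1, the E-cadherin gene, did not pass (0.04 ± 0.17), whereas DSC2 was lower in DLD1 at 602 and 1440 counts against 4993 and 8422, as was CLDN3 at 624 and 1200 against 2008 and 2865. EPCAM was higher in DLD1 by 0.88 ± 0.16. Of 16 tested keratins 3 were higher and 2 lower (median 0.12), the latter KRT4 and KRT13, which belong to stratified epithelia.

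Genes of RAS-ERK output, the signalling chain below the EGF receptor, were higher in DLD1 more often than lower, 15 against 7 of 40 tested. Over all tested genes 16.7% were higher and 18.2% lower, with a median log2 fold change of -0.01. In the list of RAS-ERK genes the median was 0.27. With a library left out 5 to 8 were higher and 1 to 5 lower. Among the ligands of the EGF receptor, EREG had 34871 and 28693 counts in DLD1 and 1646 and 694 in HCT8, a log2 difference of 4.87 ± 0.22 (adjusted p = 1.08e-08). AREG had 8111 and 5778 counts against 872 and 520, and TGFA had 9343 and 11862 against 2997 and 2574. All 3 ligands were higher in both DLD1 libraries than in either HCT8 library. Among the genes that ERK switches on, DUSP6, a phosphatase that turns ERK off, had 15555 and 11828 counts against 3869 and 3009, a log2 difference of 1.98 ± 0.18 (adjusted p = 4.3e-06). PHLDA1 had 23214 and 29537 counts against 3253 and 3550. FOSL1, a subunit of AP-1, had 1107 and 779 against 321 and 85. The receptors FGFR2, FGFR3 and FGFR4 lay on the other side, and FGFR4 had 145 and 320 counts in DLD1 and 2047 and 2180 in HCT8, a log2 difference of -3.30 ± 0.24. The feedback gene DUSP4 stood at -0.02 ± 0.26 and did not pass, whereas HRAS was higher in DLD1 by 1.69 ± 0.43. With a library left out, between 5 and 8 genes of the list were higher and between 1 and 5 lower.

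Genes of the Wnt and beta-catenin pathway differed in both directions, 9 higher and 12 lower in DLD1 of 34 tested, with a median of -0.13, and 4 to 8 were higher and 3 to 8 lower with a library left out. Of the tested Wnt genes 61.8% passed, and of the TGF-beta and BMP genes below 46.4%, against 34.9% of all tested genes. Both lines are described as mutated in APC, and APC and CTNNB1 themselves stood at -0.15 ± 0.20 and 0.20 ± 0.16 and did not pass. Among the targets and stem cell genes, LGR5, the R-spondin receptor that marks intestinal stem cells, had 2174 and 1676 counts in DLD1 and 311 and 128 in HCT8, a log2 difference of 3.23 ± 0.24 (adjusted p = 6.83e-07). LEF1, a partner of beta-catenin on DNA, had 3366 and 2218 counts against 128 and 15. AXIN2 was higher by the smaller amount of 0.75 ± 0.19. EPHB2 and EPHB3 went the other way and passed as lower in DLD1, at -1.02 ± 0.29 and -1.02 ± 0.20. Among the ligands WNT5A had 239 and 345 counts against 0 and 1. The pathway inhibitors NOTUM, APCDD1 and NKD1 were lower in DLD1, and NKD1 had 1360 and 1580 counts against 10432 and 7958, a log2 difference of -2.65 ± 0.18 (adjusted p = 3.58e-07). The receptors FZD1, FZD3, FZD5 and FZD7 were also lower, between -1.58 and -0.83. In the TGF-beta and BMP list 6 of 28 tested genes were higher and 7 lower (median -0.20). The ligands BMP4, at 33015 and 43776 counts against 8588 and 7090, BMP2, TGFB2 and TGFB3 were among the higher genes, and SMAD4, SMAD6 and SMAD9 among the lower.

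Antigen presentation was lower in DLD1 for 6 of 13 tested genes and higher for 2, with a median of -0.44, against 18.2% lower and 16.7% higher over all tested genes. With either DLD1 library left out 1 gene of the list was lower, and with either HCT8 library left out or without the treatment term 3 were. HLA-B, a class I heavy chain, had 467 and 737 counts in DLD1 and 5552 and 6695 in HCT8, a log2 difference of -3.39 ± 0.19 (adjusted p = 5.81e-08), and HLA-C was lower by -0.65 ± 0.17. B2M, at -0.23 ± 0.25, did not pass. CD74, the class II invariant chain, had 17 and 16 counts against 145 and 157. The HLA genes are near-identical copies that differ between genomes, so the split of reads between them is uncertain, and 8 of the 26 genes in the list, TAP1 and PSMB8 among them, were at 0 in all 8 libraries of the table, which is not read as absence. Interferon-stimulated genes were split, 11 higher and 9 lower of 34 tested (median 0.20), and with a library left out 2 to 8 were higher and 1 to 6 lower. Past the threshold were 58.8% of the tested interferon-stimulated genes, against 34.9% of all tested genes. IFITM2 and IFITM3, membrane proteins that block virus entry, were higher in DLD1, IFITM3 with 12307 and 15326 counts against 5730 and 4466. SAMD9 had 1374 and 2468 counts against 224 and 270. IFI27 had 4 and 0 counts in DLD1 and 152 and 112 in HCT8, and IFI6 was lower by -1.54 ± 0.20, while STAT2, at 0.13 ± 0.17, did not pass.

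In the list of NRF2 targets and xenobiotic metabolism, 13 of 42 tested genes were lower in DLD1 and 8 higher, with a median of -0.16. This put 50% of the tested members past the threshold, against 34.9% of all tested genes. With either DLD1 library left out 6 were lower and 0 higher, and without the treatment term 8 were lower and 1 was higher. The largest differences lay in the aldo-keto reductases, which reduce aldehydes and steroids. AKR1B10 had 41 and 18 counts in DLD1 and 5195 and 2809 in HCT8, a log2 difference of -7.09 ± 0.27 (adjusted p = 3.84e-09). AKR1C1 had 10 and 10 counts against 1648 and 827, and its neighbours AKR1C2 and AKR1C3 were also lower, although reads of these close paralogs are hard to divide. GPX2, the gastrointestinal glutathione peroxidase, had 2 and 13 counts against 939 and 705, and ALDH1A1, a retinal dehydrogenase, 53 and 9 against 1601 and 615. NQO1 and TXNRD1, which NRF2 also switches on, stood at 0.11 ± 0.19 and 0.33 ± 0.16 and did not pass. CYP1B1 was higher in DLD1 by 1.74 ± 0.20. The metallothioneins, metal-binding proteins outside the lists and named after their values were seen, differed by member. MT1A had 0 and 0 counts in DLD1 and 1208 and 321 in HCT8, at least 282-fold lower in DLD1, and MT1G had 4 and 1 against 1838 and 743. MT2A had 6240 and 5479 counts against 6269 and 5904 and did not pass.

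Mesenchymal and matrix genes were higher in DLD1 in 11 and lower in 7 of 29 tested, with a median of 0.45. Past the threshold were 62.1% of them, against 34.9% of all tested genes. The pairs differed: the median was -0.11 in the untreated pair and 0.53 in the hypoxia pair. TGFBI, an adhesion protein of the matrix, was higher in both, with 9060 and 11694 counts in DLD1 against 947 and 960 in HCT8 and a log2 difference of 3.42 ± 0.18 (adjusted p = 5.22e-08). FN1, fibronectin, had 280 counts in DLD1 untreated and 3203 under hypoxia, against 14 and 21. VIM, vimentin, had 87 and 604 counts against 54 and 10, so that the untreated libraries were close and the hypoxia libraries far apart. In 6 of the 38 genes of the list, CDH11, COL1A2, COL3A1, COL6A3, MMP2 and POSTN, the 3 libraries of the series that carry the second run label of the DLD1 hypoxia library (with it NCM460 untreated and HCT116 hypoxia) were all above the other 5. Over all genes with 10 or more counts in any library, 231 of 24265 had this order. FN1 was outside it only through HIEC6, another line of the series, with 6616 counts. FN1 had 5131 counts in HCT116 hypoxia and 2573 in NCM460, against 742 in HCT116 untreated. POSTN, periostin of fibroblasts, had 241, 320 and 167 counts in DLD1 hypoxia, HCT116 hypoxia and NCM460 and at most 6 in the others. In the hypoxia pair this run label and the line cannot be told apart. MMP14, S100A4 and TAGLN were lower in DLD1 in both treatments, S100A4 with 436 and 2366 counts against 6715 and 12421.

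Genes that answer to low oxygen stood at different levels in the lines. CA9, carbonic anhydrase IX, had 1 count in DLD1 untreated and 242 under hypoxia, and 4 and 178 in HCT8, and did not differ past the threshold between the lines. ALDOC, the aldolase of glycolysis in brain, had 45 and 1088 counts in DLD1 and 4770 and 51201 in HCT8, a log2 difference of -6.07 ± 0.25 (adjusted p = 5.88e-09). ADM, adrenomedullin, had 590 and 2691 counts against 146 and 745, a log2 difference of 1.91 ± 0.23. Of 26 tested genes of the hypoxia response 6 were higher and 8 lower in DLD1 (median -0.20), with a median of 0.42 in the untreated pair and -0.79 in the hypoxia pair. Past the threshold were 53.8% of the tested hypoxia genes, against 34.9% of all tested genes. The counts of higher and lower genes depended on the treatment term, and without it 0 were higher and 1 was lower. With a library left out this term was dropped as well, so that line and treatment were mixed. For genes that answer to hypoxia such fits cannot show how far a single library matters, and their counts are not given. HIF1A and EPAS1, the oxygen-sensitive subunits, were higher in DLD1 by 0.57 ± 0.17 and 1.06 ± 0.18.

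Of the genes that the study followed, HSP90AA1, the inducible HSP90 chaperone, had 130610 and 131688 counts in DLD1 and 64339 and 34034 in HCT8, a log2 difference of 1.47 ± 0.18 (adjusted p = 5.45e-05). PLCE1, the host gene of the circular RNA under study, had 2039 and 2803 counts against 2580 and 2094, a log2 difference of 0.03 ± 0.18 that did not pass. Its values overlapped between the lines. RPS3, a ribosomal protein, STUB1, a ubiquitin ligase, and RELA, a subunit of NF-kB, stood at 0.31 ± 0.17, 0.38 ± 0.17 and 0.33 ± 0.17 and did not pass. In the list of NF-kB genes with RPS3 and the chaperones 7 of 29 tested were higher and 0 lower, with a median of 0.38, against 16.7% higher and 18.2% lower over all tested genes. With the library of DLD1 untreated or DLD1 hypoxia left out, 1 or 2 of the list were higher, and without the treatment term 4 were. CXCL5, a neutrophil chemokine, had 19101 and 21280 counts against 2111 and 734, and IL18 had 4289 and 3695 against 1497 and 1229. Mismatch repair, which is lost in many right-sided tumours, had 4 of 14 tested genes higher and 0 lower (median 0.35), the largest 0.89 for EXO1. The share past the threshold, 28.6%, was under the 34.9% of all tested genes. None of these 4 genes passed with either DLD1 library or the HCT8 hypoxia library left out.

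Among imprinted genes, of which the copy of 1 parent is normally silent, 4 of 19 tested were higher and 4 lower (median -0.05). Past the threshold were 42.1% of the imprinted and 22.2% of the germline genes tested, against 34.9% of all tested genes. PLAGL1 had 1660 and 3309 counts in DLD1 and 57 and 58 in HCT8, a log2 difference of 5.34 ± 0.26 (adjusted p = 2.38e-08), and HYMAI, the non-coding RNA of the same locus, had 77 and 186 against 8 and 10. MKRN3 had 245 and 210 counts against 0 and 0. KCNQ1 and KCNQ1OT1, which overlap on opposite strands, were both lower in DLD1, as was H19, with 945 and 4492 counts against 3391 and 16695. Of 9 tested germline genes TDRD1 and TDRD12 were higher and none lower. Of the few markers of other cell types that were tested, 1 of 3 fibroblast genes was higher and 1 lower, 1 of 3 endothelial genes was higher, 1 of 4 leukocyte genes was lower, and of the 2 neural genes TUBB3 was higher and NES lower. The only protocadherin of the gene clusters that was tested was lower. The other 60 were at 0 in all 8 libraries, which is not read as absence.

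**Figure D4:**
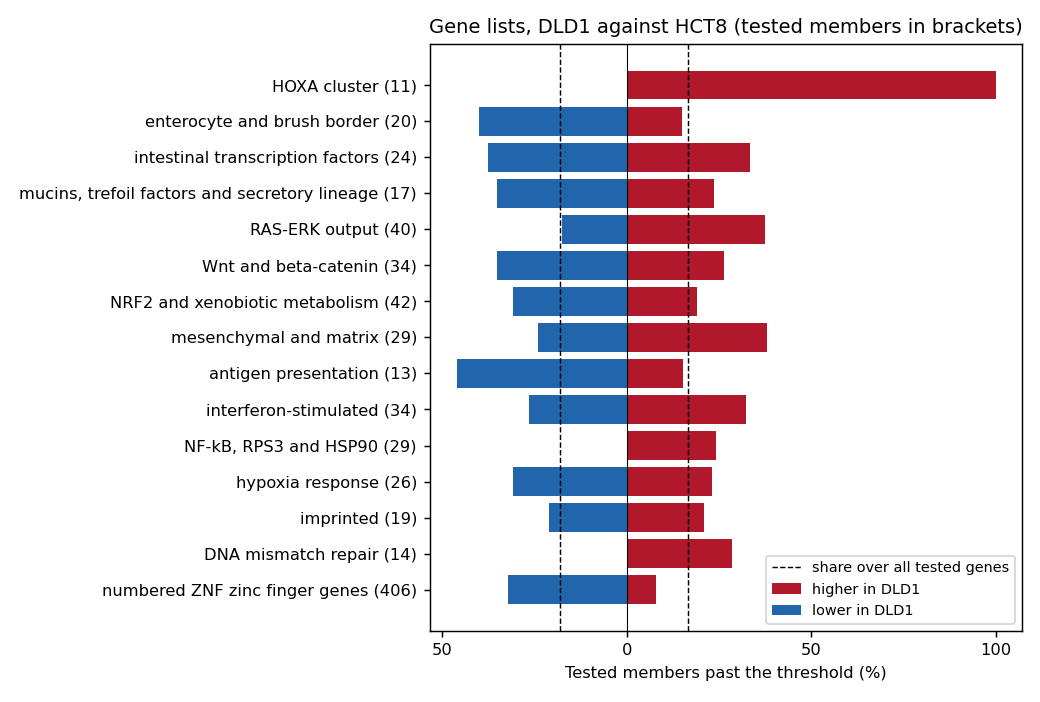
Share of tested genes in each of the lists drawn, in percent, that passed the threshold higher in DLD1 (red, to the right) and lower (blue, to the left), with the number tested in brackets and the shares over all tested genes (16.7% and 18.2%) as dashed lines. The HOXA bar reaches 100% on the side of DLD1, and the bars of antigen presentation and of the enterocyte genes are the longest of those drawn on the side of HCT8.

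Along the genome, chromosome 13 stood apart from the other autosomes. Of its 368 tested genes 118 (32.1%) were lower in DLD1 and 32 were higher, and the median log2 difference of its 228 genes with a mean log2 CPM above 1 was -0.453 in the untreated pair and -0.463 in the hypoxia pair. On the other autosomes these medians lay between -0.176 and 0.149 in the untreated and between -0.0938 and 0.167 in the hypoxia pair. Below 0 were 76.8% of the 228 genes. CDX2, KLF5 and PDX1, which lie on chromosome 13, were lower in DLD1 by between -0.88 and -0.67, whereas COL4A1 and COL4A2 of the same chromosome were higher. DNA copy number was not measured here.

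**Figure D5:**
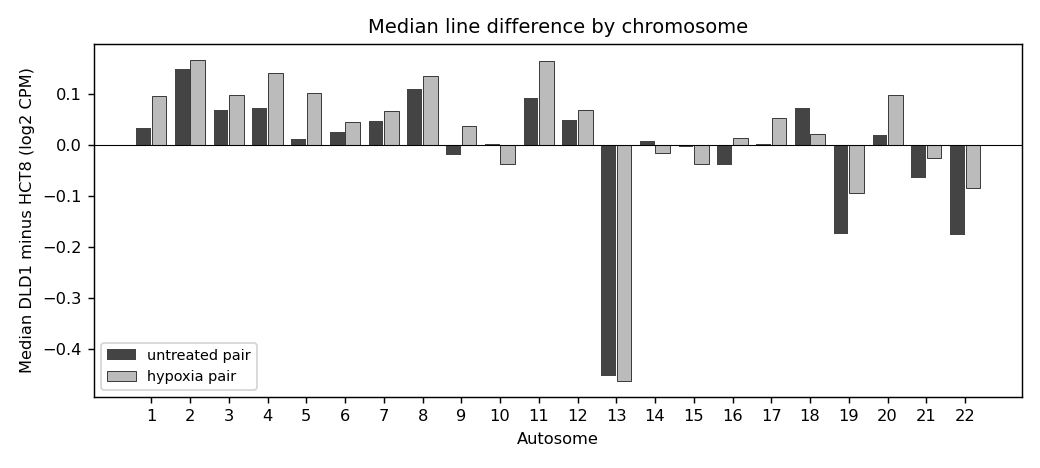
Median DLD1 minus HCT8 difference in log2 CPM over genes with a mean log2 CPM above 1 on each of the 22 autosomes, with dark bars for the untreated pair and grey bars for the hypoxia pair. Chromosome 13 reaches -0.453 and -0.463, and no other autosome goes below -0.176.

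In windows of 40 consecutive tested genes the difference was uneven within chromosomes. Of 443 windows 18 had medians below -0.4 in both pairs, 5 of them among the 9 windows of chromosome 13, and 10 had medians above 0.4. The most negative, from DUSP22 to PPP1R3G on chromosome 6, had medians of -1.18 and -1.35 with 27 genes lower and 1 higher in DLD1. SERPINB9, an inhibitor of granzyme B in this window, had 296 and 383 counts in DLD1 and 2814 and 4185 in HCT8, a log2 difference of -3.37 ± 0.22, and FOXQ1, a forkhead factor, was the exception at 12472 and 10517 counts against 4155 and 1138. The genes at the ends of windows and these 2 were named after their values were seen. The last window of chromosome 13, from IRS2 to CHAMP1, had 24 of 48 genes lower. On chromosome 2 the windows from TTC27 to THUMPD2 (24 higher, 1 lower) and from EPCAM to REL (21 higher, 1 lower) had medians between 0.692 and 0.743 in the pairs. With windows of 80 genes, 5 of 215 lay below -0.4 in both pairs, 2 of them among the 4 of chromosome 13, and 5 lay above 0.4.

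Runs of neighbours that differed together were found 44 times when at least 4 consecutive tested genes had to pass in the same direction with a log2 difference over 1 in size, 14 higher and 30 lower in DLD1. After the HOXA run the longest was 8 genes on chromosome 19 from ZNF577 to ZNF432, lower in DLD1 with a median of -3.15. A run of 7 on chromosome 6 ended in SAMD3 and TMEM200A, a run of 7 on chromosome 12 began with OLR1 and TMEM52B, and CDX1 lay in a run of 5 with PDGFRB on chromosome 5. Zinc finger genes of the numbered ZNF series, most of which encode repressors that bind DNA, were lower in DLD1 in 131 and higher in 32 of 406 tested, with a median of -0.30. Over all tested genes 18.2% were lower and 16.7% higher. On chromosome 19, where the ZNF genes form clusters, 79 of 185 of them (42.7%) were lower, and on the other autosomes 52 of 221 (23.5%). The other 980 tested genes of chromosome 19 were lower in 256 cases (26.1%). Reads of these repeated genes can be hard to place, and without a DLD1 library the number lower was 17 or 16 of 406.

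The tRNA, snoRNA and snRNA genes that passed were all higher in DLD1. Of 69 tested tRNA genes 37 (53.6%) were higher in DLD1 and 0 lower, of 214 snoRNAs 39 (18.2%) and 0, and of 27 snRNAs 13 (48.1%) and 0. Over all tested genes 16.7% were higher and 18.2% lower. Summed over all tRNA genes of the table, the level was 153 and 115 CPM in DLD1 and 61.5 and 23.3 CPM in HCT8. The snoRNA sums were close in the untreated libraries, 1190 CPM in DLD1 and 1100 CPM in HCT8. Under hypoxia they were 1080 and 716 CPM. For snRNAs the sums over all genes of the table pointed the other way from the tested genes, 12900 and 16600 CPM in DLD1 against 15200 and 20300 CPM in HCT8. How much of such short RNA each library kept is not given in the sources used here. Of 2544 tested long non-coding RNAs 222 were higher and 406 lower, and of 13051 protein-coding genes 2597 and 2692. This put 24.7% and 40.5% of them past the threshold, against 34.9% of all tested genes.

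CpG content at promoters was counted as a description of the genes that differed. A promoter was called CpG-rich at 55% or more G+C and an observed over expected CpG of at least 0.6 in the 300-base window. Of the 10035 tested protein-coding genes with a promoter on record, 72.4% were CpG-rich, against 57.4% of 652 that were higher in DLD1 by 1 or more in both treatments and 60.6% of 1116 that were lower. Of the genes read in 1 line only, 17 of 32 with a promoter were CpG-rich among those of DLD1 and 17 of 27 among those of HCT8. HOXA13, TMEM200A and ZNF512, printed above, belong to the CpG-rich class, and ALPI does not. Genes expressed at few counts enter these groups unequally, and no test was run on the shares.

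Of 12092 genes with a mean log2 CPM above 1, 4 differed by 2 or more in either direction in the untreated pair and by under 0.5 in the hypoxia pair, and 12 the reverse. With 1 library in each cell of line and treatment, these were not tested.

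To set the size of the difference, each line was also compared with HCT116. Over 16624 genes tested in all 3 comparisons the median size of the log2 fold change was 0.522 for DLD1 against HCT8, 0.715 for HCT116 against DLD1 and 0.646 for HCT116 against HCT8, and sizes over 1 made up 25.9%, 37% and 33.4%. The comparisons share libraries, DLD1 between the first and the second and HCT8 between the first and the third. At most 3 counts in one line and at least 100 in the other were found in 48 and 53 genes between DLD1 and HCT8, in 208 and 145 between HCT116 and DLD1 and in 203 and 154 between HCT116 and HCT8. The share of genes past the threshold went the other way, 25.1% and 27% in the comparisons with HCT116 against 34.9%. The residual spread of the fit was larger there (biological coefficient of variation 0.319 and 0.312 against 0.204). With 1 library in each cell of line and treatment, this spread includes any difference in hypoxia response between the lines and is not a spread of replicates.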

How the data were processed

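Ribosomal RNA was depleted before 8 total RNA libraries were sequenced, and 1 table of raw read counts per gene was deposited. The authors' text names GRCh37.p13 for the alignment, while the submitters' processing notes list GRCh38 and HISAT2 2.0.4, so no gene coordinates are given from the counts. The counter, the strand setting and the treatment of reads with several matches are not given in the sources used here. All columns were mapped by their labels (0 left aside).

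Symbols were placed with RefSeq GRCh38.p14, 51460 of 54261, of which 48808 autosomal. X, Y, mitochondrial and unplaced genes were left out. Counts of DLD1 and HCT8 were fitted with edgeR 4.0.16 in R 4.3.3 (TMM, glmQLFit, glmQLFTest, line and treatment, 1 residual degree of freedom, Benjamini-Hochberg 0.05), checked on simulated counts. Standard errors come from the fold change and its F statistic. CPM use total counts, and log2 CPM per pair a prior count of 2. Ratios carry exact 95% counting intervals, which cover counting error only, and "at least" uses a floor of 3 counts per library, 0.0523 to 0.0659 CPM. Promoters and start sites come from RefSeq.

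The replicate number of the labels marks the treatment, so treatment is the block. Same-treatment libraries moved together (the hypoxia changes of the lines correlated at 0.394 over 18144 genes). The members and the gene lists were chosen with earlier results of these data known. Named genes are, per direction, the 15 largest fold changes among called genes with mean log2 CPM above 1 and the same sign in both treatments, at most 10 genes per line read in 1 line only, list members, and PLCE1, RPS3, HSP90AA1, STUB1 and RELA. Alternatives were DESeq2 1.42.0, limma-trend (limma 3.58.1), upper-quartile normalization, other filters, unplaced genes added, all 6 CRC libraries, no block, a fold threshold, and leaving out each library. The HCT116 comparisons without the block were added after seeing the data. Some genes and 1 list are not reported here.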

Additional observations from a re-analysis of the deposited data

Results flagged for a closer look

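In 9 genes of the lists the difference hypoxia minus untreated had opposite signs in the lines and was over 1 in size in each, on the log2 CPM scale. Each value rests on 1 library per line and treatment, so the difference between the lines was not tested, and the libraries of the hypoxia pair carry differing run labels. ALPI stood at -1.63 in DLD1 and 1.28 in HCT8, with 4 and 0 counts in DLD1. LGALS4 stood at -1.04 and 2.29, again with 2 and 0 counts in DLD1. GBP2, an interferon-induced GTPase, stood at -1.86 and 3.52, from 13 to 148 counts in HCT8. In these genes the DLD1 difference is a matter of at most 5 counts.

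In the other genes the difference was above 0 in DLD1 and below 0 in HCT8. REG4, a secreted lectin of gut epithelium, stood at 1.99 and -1.41, from 36 to 165 counts in DLD1 and from 800 to 258 in HCT8. SPATA18 stood at 1.07 and -1.46, with 2 and 7 counts in DLD1. VIM stood at 2.62 and -2.03, SPARC at 1.95 and -1.13, COL1A2 at 3.83 and -1.36 and COL6A3 at 3.8 and -2.53. COL1A2 and COL6A3 are among the genes that were also high in the other libraries with the second run label, with 724 and 404 counts in HCT116 hypoxia and 393 and 239 in NCM460.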

How the results depend on the processing

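The number of genes that differ between DLD1 and HCT8, 6331, was within 1.5 times under DESeq2 (5251), limma-trend (6865), upper-quartile normalization (6239), other filters (5022 and 6695) and with unplaced genes (6494). It fell to 2129 without the treatment block (840 higher), where the treatment pairs the libraries, to 3246 with all 6 CRC libraries and to 3900 with a log2 fold change over 1. With a library left out, which also removes the treatment term, it lay between 691 and 4268. The genes that differ and hold in both treatments, 6330, numbered 2129 without the block, 3246 with 6 libraries, 3184 at 1 or more in each pair and 690 to 4187 with a library left out. Genes read in 1 line only numbered 58 and 183 under the other limits. Without the block, genes that differ between HCT116 and HCT8 fell from 4992 to 2800, and genes that differ between HCT116 and DLD1 from 4604 to 3616. Of the 166 genes named here that passed, none changed sign under these alternatives, and 42 were no longer past the threshold without the block, 29 with 6 libraries and 24 to 72 with a library left out. That no sign changed follows in part from the choice of genes, since nearly all called genes had the same sign in both pairs. The alternatives also reused the same libraries, some of them left out or those of HCT116 added. The spread of a gene rests on 1 residual degree of freedom shared across genes, so single calls near the threshold are weak.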
